A study of Mus musculus with 2 samples.

Results

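Heat shock and DnaJ chaperone genes were examined in 2 coronal sections of mouse brain that hold the dorsal hippocampus on both sides. The genes were all rows of the count tables whose symbol starts with Hsp followed by a letter or digit, or with Dnaj, without symbols that hold -ps or -rs. This rule found 75 of 32285 genes, 30 with an Hsp symbol and 45 with a Dnaj symbol, and 73 of them had at least 1 count in a section. Dnajb7 and Dnajb8 were at 0 in both sections.

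Heat shock proteins are molecular chaperones. HSP70 proteins bind exposed hydrophobic stretches of unfolded proteins in cycles of ATP hydrolysis, DnaJ proteins (HSP40) bring clients to HSP70 and speed that hydrolysis, and HSP90 proteins act later, on clients that are close to their folded state. Each compartment has its own set, and in the cytosol relatives that are made at all times stand beside relatives whose genes are switched on by heat shock factor 1 when proteins misfold. In neurons the constitutive HSP70, Hspa8, also takes the coat off clathrin-coated vesicles together with the DnaJ protein Dnajc6, and acts at synaptic vesicles together with Dnajc5. The symbols of a few members belong to proteins of another kind and were kept in a list of their own: Hspg2 (perlecan, a proteoglycan of the basement membrane), Hspb11 (a protein of cilia, IFT25) and Hspbap1 (a protein that binds Hspb1).

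Expression was measured with Visium, in which tissue lies on a grid of barcoded spots and the polyadenylated RNA above each spot is captured and counted as unique molecular identifiers (UMIs, 1 per captured molecule). Both mice were male ArcCreERT2::eYFPflx mice on a C57BL/6 background, 3 to 4 months of age, a line in which a tamoxifen-dependent Cre under the Arc promoter can switch on a fluorescent reporter. The Trained mouse had learned to avoid a shock zone on a rotating arena, and the Untrained mouse had the same sessions with the shock always off. Both brains were taken 60 min after a retention test without shock, which came 24 h after the last training, and each gave 1 section of 10 µm. The comparison asks how gene expression after recall of a place avoidance memory differs from that of a mouse without that memory.

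Each group was 1 section of 1 mouse, so that training, animal, section and library cannot be told apart and no test between the sections was possible. The intervals given are 95% intervals of the counts alone. The Trained section had 4152 spots and 29515831 UMIs, the section labelled Untrained 3738 spots and 59029131 UMIs. The hippocampus was outlined by clustering, and the 5 markers of the CA1 layer summed to 511 and 465 counts per 1000000 UMIs (CPM) inside it against 150 and 140 outside it. It held 581 and 563 spots with medians of 5271 and 16534 UMIs, and within it the left side of the section labelled Trained was the shallowest, with a median of 2904 UMIs in a spot against 8052 on its right. Outside it, striatal spots numbered 215 and 30 and choroid plexus spots 71 and 165. A region is named by its marker or leading genes and is made of spots that hold several cells, so fewer cells of a kind and less RNA in each cell cannot be told apart.

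The labels of the deposit and the study's own account of its sections are at odds, so the sections are called by their labels throughout. A tear crosses the hippocampus of the section labelled Untrained, where 15 grid positions between tissue spots lay off the tissue in the rows of the hippocampus, against 0 in the section labelled Trained. The study's maps show such a tear in the section of its trained mouse. Immediate early genes, which neurons switch on with activity, were also detected in more spots of the section labelled Untrained, which was the deeper one. A UMI of Egr1 was in 44.1% of the hippocampal spots of the section labelled Trained and in 69.3% of those of the section labelled Untrained, a UMI of Jun in 30.8% and 56.1%, and a UMI of Arc in 36.0% and 61.6%. In the study these genes are the more often detected in the trained mouse. The shares of Egr1 and Jun in each section are close to those of the study's opposite mouse. For Arc only the direction is reversed. Its share in the section labelled Trained is that of the study's trained mouse, and its share in the section labelled Untrained is near that of neither mouse. By the tear and the shares of Egr1 and Jun, though not by those of Arc, the labels appear to be exchanged in either the deposit or the study. Which of them is right was not settled. Every direction between the sections given here follows the labels of the deposit and turns if the study's account holds.

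The promoters of the heat inducible genes are shown first because the binding element they hold is the textbook difference from the constitutive relatives. Heat shock factors bind arrays of the 5-base unit NGAAN in alternating direction. Windows from 250 bases before to 50 bases after the start site (RefSeq, GRCm38.p6, the build of the counts) were given for 61 of the 75 genes and searched for 2 adjoining units, GAANNTTC or TTCNNGAA, which read the same on both strands. Such a pair was in 8 of 9 heat inducible genes with a window (88.9%), in 1 of 13 constitutive cytosolic genes, in 1 of 12 genes of the endoplasmic reticulum and in 16 of all 61 (26.2%) against 4587 of 27025 genes. A run of 3 adjoining units, GAANNTTCNNGAA or TTCNNGAANNTTC, which contains the shorter pair, was in Hspd1, Hspe1, Hsph1 and Dnajb6, against 0.662% of all genes. Of the heat inducible genes Dnajb1 held no pair in its window, and Hsp90aa1 had no window. The constitutive Hspa8 and Hsp90ab1 had no window either, so the count of 1 of 13 leaves out these abundant relatives. The 150 bases before the start site of 4 inducible genes follow, with the units in capitals.
Hspe1, chr1:55087998-55088147, plus strand: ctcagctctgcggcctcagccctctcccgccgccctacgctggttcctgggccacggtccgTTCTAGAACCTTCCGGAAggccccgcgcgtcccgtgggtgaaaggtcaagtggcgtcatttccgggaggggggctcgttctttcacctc
Hspa1a, chr17:34972157-34972306, minus strand: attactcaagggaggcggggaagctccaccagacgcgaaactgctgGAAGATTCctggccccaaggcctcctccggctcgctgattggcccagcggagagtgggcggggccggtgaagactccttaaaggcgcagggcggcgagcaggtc
Hspa1b, chr17:34959239-34959388, minus strand: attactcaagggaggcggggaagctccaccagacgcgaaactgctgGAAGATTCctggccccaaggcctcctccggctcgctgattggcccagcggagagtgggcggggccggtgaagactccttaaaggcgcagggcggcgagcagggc
Hspb1, chr5:135887769-135887918, plus strand: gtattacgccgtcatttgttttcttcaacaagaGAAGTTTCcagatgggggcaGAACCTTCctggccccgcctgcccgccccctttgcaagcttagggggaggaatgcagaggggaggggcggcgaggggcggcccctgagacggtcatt
The element printed for Hspe1 also lies in 1 of the 2 windows given for Hspd1, which is read from the opposite strand, and the other window of Hspd1 holds no pair. A match is a description of the letters and no measure of binding. The stretches printed for Hspa1a and Hspa1b agree at 149 of 150 bases, and since the genes themselves are near-identical copies, their counts are uncertain wherever reads could have gone to either.

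Levels are given in CPM of the same spots. They need no division by gene length, because each molecule is counted once at its 3′ end. In the whole section Hspa8 (chr9:40800984-40810087) was the most abundant member, with 1618 CPM in the section labelled Trained and 1979 CPM in the section labelled Untrained. The HSP90 genes of the cytosol followed, the inducible Hsp90aa1 with 961 and 999 CPM and the constitutive Hsp90ab1 with 699 and 910 CPM. These 3 genes made up 41.4% of all UMIs of the members in the section labelled Trained and 48.4% in the section labelled Untrained. All 75 genes together came to 7917 and 8037 CPM, and 17 and 18 of them reached 100 CPM.

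By the mean of both sections the next levels belonged to partners of these chaperones and to other compartments. In a single section other members stood among them, Dnajc19 with 211 CPM in the section labelled Trained and Hspa5 with 179 CPM in the section labelled Untrained. Hspe1, the small co-chaperonin that closes the mitochondrial Hspd1 ring, had 470 CPM in the section labelled Trained and 293 CPM in the section labelled Untrained. The DnaJ partners of HSP70 followed, Dnaja1 with 326 and 291 CPM and Dnaja2 with 260 and 166 CPM. Hsp90b1, the HSP90 of the endoplasmic reticulum, had 240 and 213 CPM, and the mitochondrial HSP70 Hspa9 had 192 and 165 CPM. Hsph1, a nucleotide exchange factor of HSP70, was lower in the section labelled Trained, with 162 against 224 CPM. Dnajb6, a suppressor of protein aggregation, stood at 183 and 187 CPM.

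**Figure D1:**
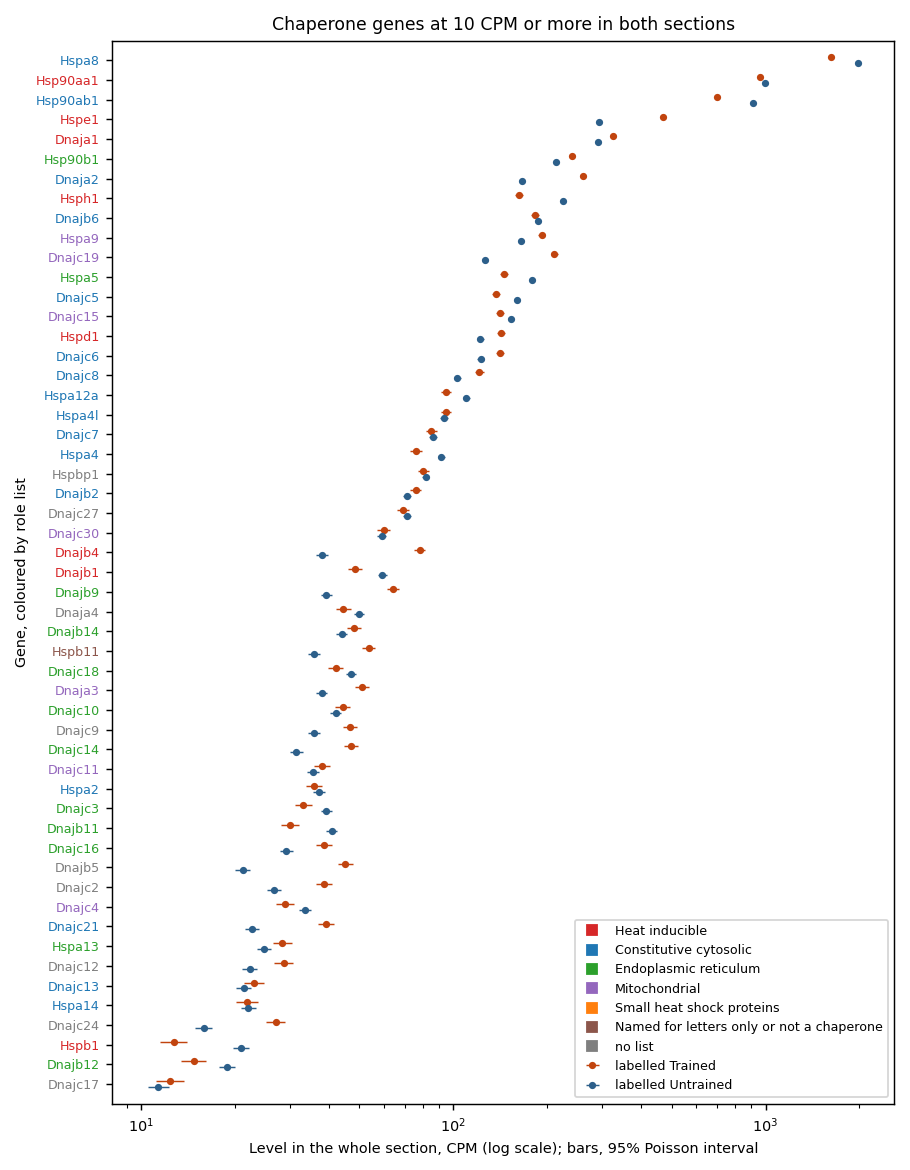
Level of each gene with at least 10 CPM in both whole sections, on a log axis in CPM with 95% Poisson intervals. Each row is a gene, its name coloured by its role list, with the section labelled Trained and the section labelled Untrained as separate points. Hspa8, Hsp90aa1 and Hsp90ab1 stand above all others, and Dnajb5, Dnajb4 and Dnajc19 show wide gaps between the sections.

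The stress-inducible HSP70 genes were rare in both sections. Hspa1a had 8.23 CPM in the section labelled Trained and 8.11 CPM in the section labelled Untrained, and Hspa1b had 6.10 and 6.22 CPM. A UMI of Hspa1a was found in 5.40% and 11.3% of spots, and no spot held more than 4 of its UMIs in the former section or 3 in the latter. At section level neither gene differed beyond its counting interval. The testis-type member Hspa1l had 8 and 17 UMIs in the whole sections.

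Across the brain 21 of the 56 members with at least 200 UMIs in each section were at least 1.5-fold higher in 1 or more of 17 regions than in the rest of the same section, in both sections, against 50.5% of 10544 genes. Of the 952 pairs of a member and a region 34 were that much higher (5.2% of such pairs over all genes) and 68 that much lower (10.5%). Hspa8 ranged from 1104 CPM in the remaining hippocampal spots outside the cell layers to 1985 CPM in the Six3-led subcortical spots of the section labelled Trained, and from 1398 CPM to 2367 CPM in the CA3 pyramidal layer of the section labelled Untrained. Hsp90ab1 was highest in CA3 in both sections, with 1009 and 1256 CPM. Hsp90aa1 was at 1142 and 1177 CPM in CA3 and only at 609 and 698 CPM in the granule layer of the dentate gyrus (DG).

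Within the hippocampus the cell layers differed in single members. Hspa2, a single-exon HSP70 gene (chr12:76404176-76406938) best known from spermatogenesis, was highest in DG in both sections, with 141 CPM in the section labelled Trained and 98.02 CPM in the section labelled Untrained, against 14.6 and 19.6 CPM in the Prkcd-led thalamus. Its ratio in DG over the rest of the section was 2.18 and 1.58 on the log2 scale, and it also passed the fold in CA3. Dnajb5 (chr4:42949814-42959425), a DnaJ relative of Dnajb1, stood at 96.3 and 39.5 CPM in CA1 and at 95.7 and 44.4 CPM in DG, but at 13.1 and 11.4 CPM in the white matter. Beyond the hippocampus Dnajb5 also passed the fold in the upper layer neocortex. DG was at least 1.5-fold higher for 5 of 56 members (Dnajc1, Dnajb5, Hspb11, Dnaja4 and Hspa2; 10.1% of all genes), CA1 for 2 (Dnajb5 and Hspa1a; 6.17%) and CA3 for 3 (Dnajc6, Hspa2 and Hspa1a; 6.27%). These counts are no larger a share of the members than the percentages are of all genes.

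Hspa1a and Hspa1b were both more frequent in the pyramidal layers than in the rest of a section. Hspa1a had 17.04 CPM in CA1 and 13.9 CPM in CA3 of the section labelled Trained and 13.8 and 17.7 CPM in the section labelled Untrained. Hspa1b, which had too few UMIs for the regional comparison, had 15.6 and 16.2 CPM in the same layers of the section labelled Trained and 14.1 and 11.9 CPM in those of the section labelled Untrained. These levels rest on 18 to 61 UMIs each. The highest level of Hspa1a in the section labelled Trained was that of the choroid plexus, 23.0 CPM from 16 UMIs, against 6.60 CPM from 32 UMIs in the section labelled Untrained. Hippocampal spots outside the cell layers, which were the shallowest of the hippocampus, were at least 1.5-fold lower for 12 of 56 members (13.8% of all genes), among them Hsp90aa1, Dnaja1 and Dnajb1, and higher for Hspb8.

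The choroid plexus, the epithelium that makes the cerebrospinal fluid, was higher for more members than any other region. It was at least 1.5-fold higher for 8 of 56 members (7.95% of all genes), namely Hspa5, Hsp90b1, Dnajc3, Dnajb11, Hspb8, Hspb1, Hspa2 and Dnaja4. The first 4 of these act in the endoplasmic reticulum, Hspa5 as its HSP70, Hsp90b1 as its HSP90 and the other pair as DnaJ partners. Hsp90b1 had 394 CPM in the choroid plexus of the section labelled Trained and 378 CPM in that of the section labelled Untrained, against 164 and 169 CPM in CA1. Hspa5 had 227 and 348 CPM there, against 118 and 148 CPM in CA3. In the section labelled Trained, however, Hspa5 was highest in the Oxt-led hypothalamus, with 229 CPM. The summed list of the endoplasmic reticulum had 1013 CPM in the choroid plexus of that section and 1003 CPM in its Oxt-led hypothalamus. In the section labelled Untrained these sums were 1155 and 867 CPM. The choroid plexus was lower for 9 members (24.1% of all genes), among them Dnajb5, Dnajc6 and Dnajb6.

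Small heat shock proteins, which hold unfolded proteins without ATP, were represented among the members mainly by Hspb1 and Hspb8. Cryab, of the same family but outside the rule, was far more abundant, with 295 and 390 CPM in the whole sections. In spots led by genes of meninges and vessels 2 members were at least 1.5-fold higher (4.04% of all genes), Hspb1 and Hspb8. Hspb1 had 46.6 and 61.3 CPM there, against 3.85 and 8.14 CPM in CA3. By the smaller of the ranges of both sections Hspb8 and Hspb1 had the widest regional range, 3.38 and 3.22 log2 units, whereas Dnajc12 was widest in the section labelled Trained alone with 3.76. Of the small proteins outside this pair, Hspb2, Hspb3, Hspb6, Hspb7 and Hspb9 had between 1 and 181 UMIs in the section labelled Trained, and Hspb2 overlaps Cryab, a gene of the same family on the other strand. Dnajb13, a component of motile cilia, had 28 and 145 UMIs in all, of which 11 and 92 were in choroid plexus spots.

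White matter, the spots led by myelin genes, was at least 1.5-fold higher for Dnajb2 and Dnajc24 (2 of 56, 9.84% of all genes) and lower for 12 members (22.0%), among them Dnaja1, Hsph1, Hspa4, Dnajc5 and Hspa12a. Dnajb2, a neuronal DnaJ protein that links HSP70 to ubiquitin, had 252 and 193 CPM there and 37.0 and 36.1 CPM in CA1. Dnajc24, which takes part in the synthesis of diphthamide on a translation factor, ranged from 11.6 and 7.56 CPM in CA3 to 66.0 and 36.6 CPM in the white matter.

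Further members had their highest level in the thalamus, habenula or other subcortical spots. Hspa12a, a distant HSP70 relative, was highest in the Prkcd-led thalamus with 186 and 207 CPM, against 24.3 and 46.9 CPM in the white matter. Hspa4l, an exchange factor of the HSP110 type, passed the fold in the same spots. Dnajc12, a co-chaperone of the aromatic amino acid hydroxylases, was highest in the habenula with 74.9 and 54.1 CPM and was high in the Oxt-led hypothalamus with 55.6 and 44.9 CPM. Dnajc27, a small GTPase with a J domain, ranged from 22.5 CPM in the remaining hippocampal spots to 128 CPM in the Six3-led subcortical spots of the section labelled Trained, and from 25.4 CPM in the choroid plexus to 119 CPM in the Spp1-led subcortical spots of the section labelled Untrained.

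**Figure D2:**
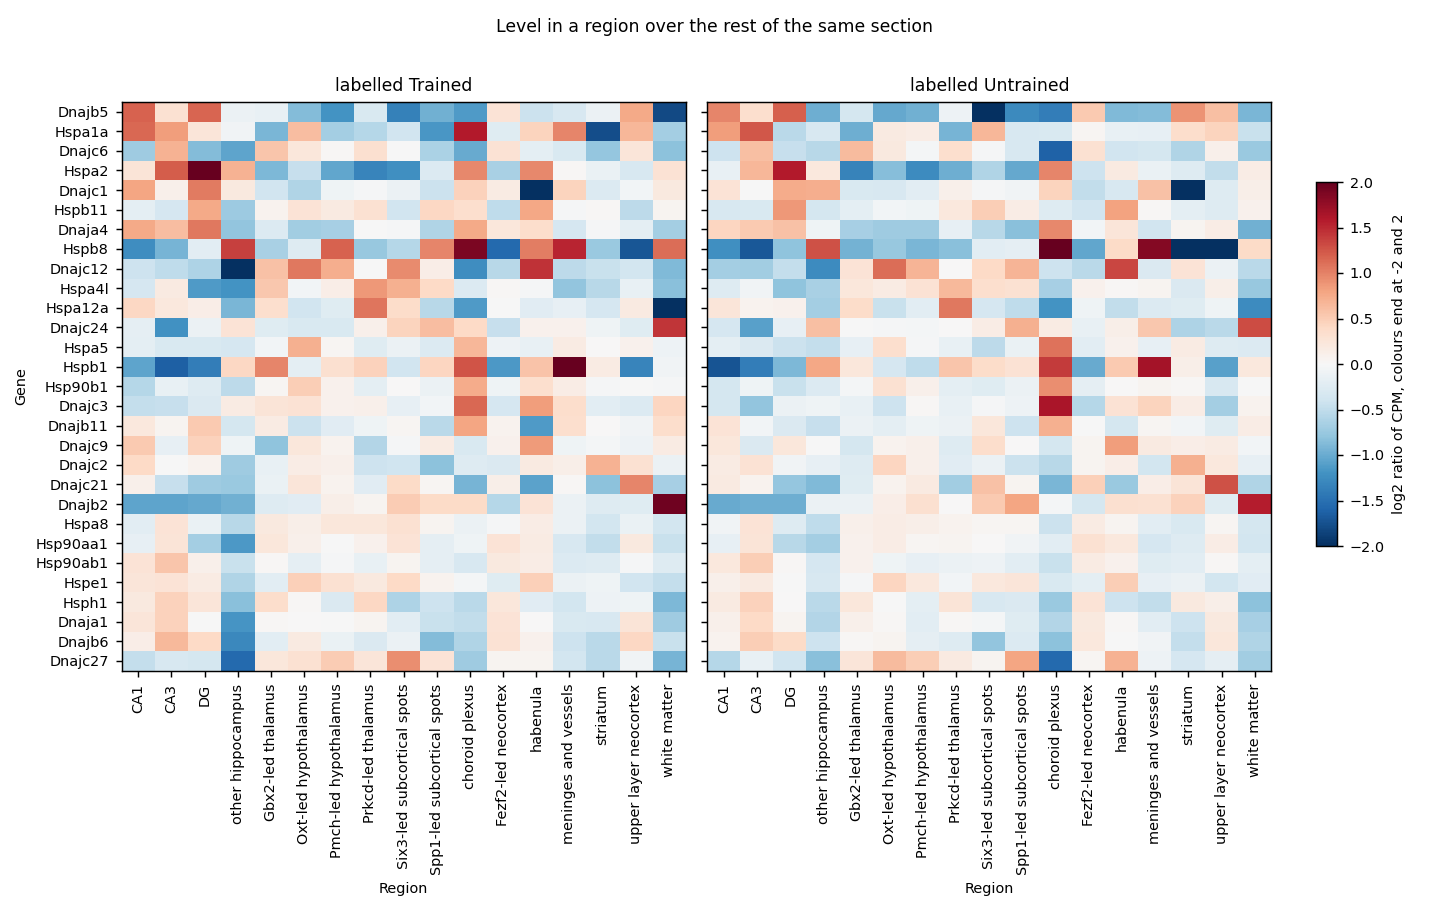
Colours give the log2 ratio of the CPM of a region over that of the rest of the same section, the section labelled Trained at left and that labelled Untrained at right, for the 21 genes that were at least 1.5-fold higher in some region in both sections and 8 others. Hspa2 and Dnajb5 are high in DG, Dnajb2 and Dnajc24 in the white matter, Hspb1 in meninges and vessels, and the choroid plexus column is high for Hspa5, Hsp90b1, Dnajc3 and Dnajb11.

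**Figure D3:**
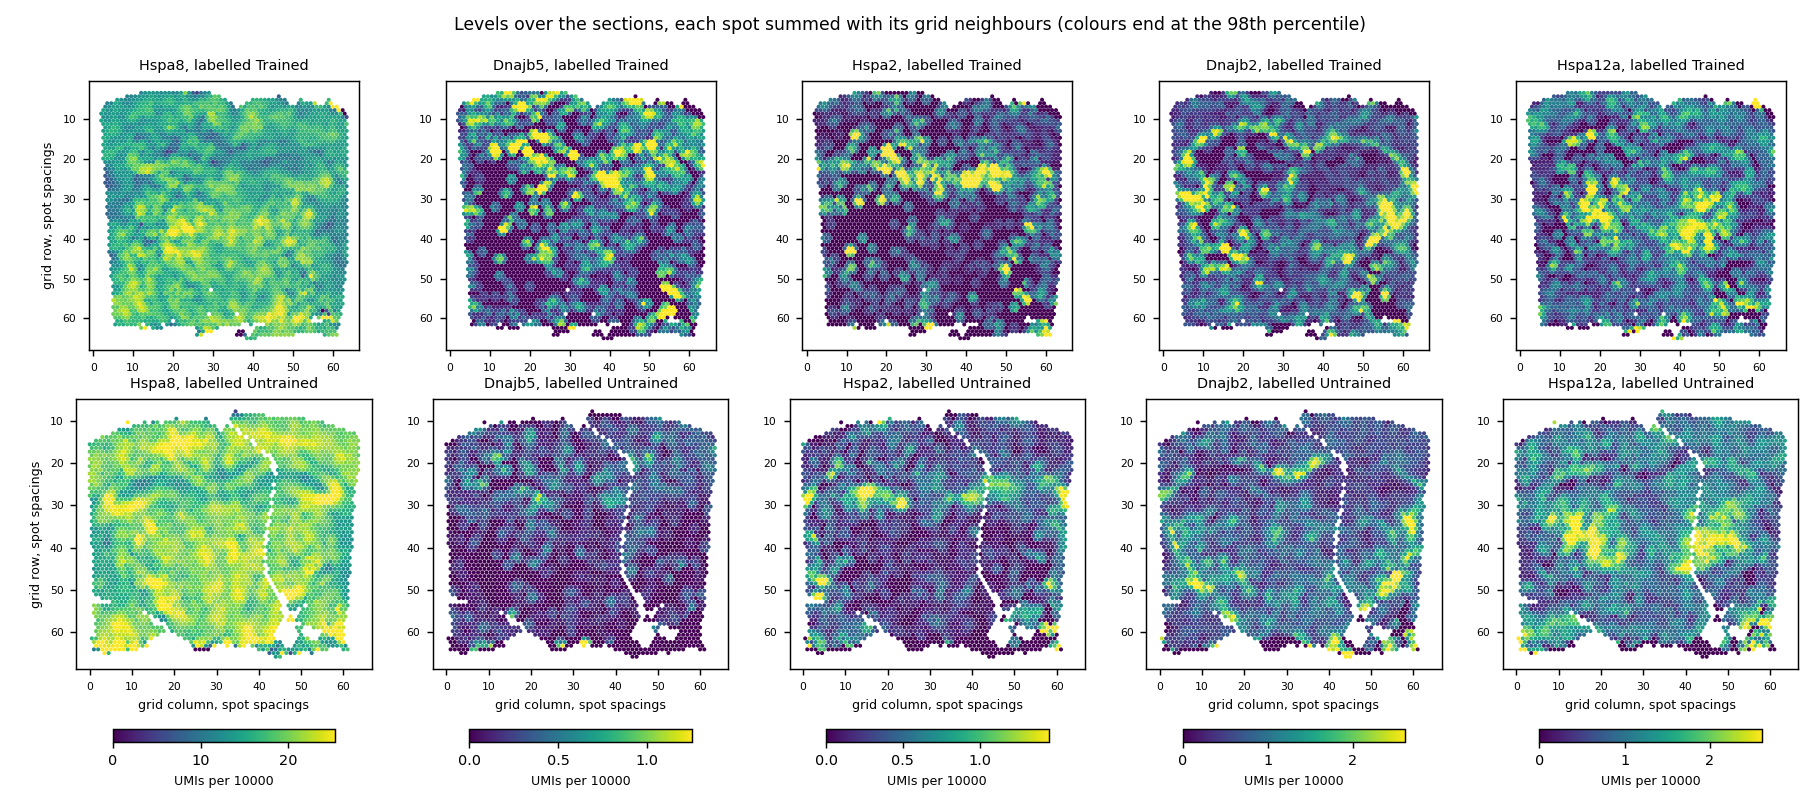
Level of 5 genes over the sections as a share of all UMIs (colour bars), each spot summed with its neighbours on the grid, axes in spot spacings, the section labelled Trained above and that labelled Untrained below. In both sections Hspa2 is bright in the hippocampus and at spots near the lower edges, Dnajb2 along bands of white matter and Hspa12a in the thalamus on both sides, and Dnajb5 is brighter in the section labelled Trained.

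The deposited Moran's I score, which grows as adjacent spots come to resemble each other in a gene, was highest for Hsp90aa1 in the section labelled Trained (0.26, and 0.24 in the section labelled Untrained) and for Hspa8 in the section labelled Untrained (0.26, and 0.22 in the section labelled Trained). Over the members with at least 200 UMIs in each section its median was 0.04 and 0.06, against 0.03 and 0.04 over all such genes. The genes that led in this score, Hsp90aa1 and Hspa8, were also the most abundant members.

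The ratio of an inducible gene to its constitutive relative within the same spots needs no scaling between libraries. Hsp90aa1 and Hsp90ab1 did not differ beyond the counting interval in the hippocampus of the section labelled Trained, with 3633 and 3643 UMIs and a log2 ratio of -0.00 (-0.07 to 0.06), and Hsp90aa1 was the lower one in that of the section labelled Untrained, with a log2 ratio of -0.23 (-0.26 to -0.19). Outside the hippocampus Hsp90aa1 was the higher one in both sections, with log2 ratios of 0.54 (0.51 to 0.57) and 0.22 (0.20 to 0.24). In both sections DG had the lowest ratio of the 3 cell layers, -0.30 and -0.41, and CA3 the highest, 0.18 and -0.09.

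Hspa1a and Hspa1b summed were below Hspa8 in every region, and less so in the hippocampus than in the spots outside it as a whole. The log2 ratio was -5.81 (-6.08 to -5.55) in the hippocampus and -7.08 (-7.25 to -6.92) outside it in the section labelled Trained, and -6.48 (-6.67 to -6.30) and -7.30 (-7.42 to -7.19) in the section labelled Untrained. Of the 3 cell layers DG had the widest gap between sections, with 34 UMIs and a ratio of -5.79 (-6.35 to -5.32) in the section labelled Trained and 46 UMIs and a ratio of -7.14 (-7.61 to -6.74) in the section labelled Untrained. Hsph1 exceeded its relative Hspa4 by 1.22 and 1.43 log2 units in the hippocampus of the section labelled Trained and the section labelled Untrained.

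In both DnaJ pairs the ratio was lower in the section labelled Trained. Dnaja1 exceeded Dnaja2 by 0.22 (0.11 to 0.33) log2 units in the hippocampus of the section labelled Trained and by 0.75 (0.68 to 0.83) in that of the section labelled Untrained. Dnajb1, the DnaJ partner of inducible HSP70, was below Dnajb5 in the hippocampus of the section labelled Trained, with 160 against 343 UMIs and a log2 ratio of -1.10 (-1.38 to -0.83), and above it in that of the section labelled Untrained, with 572 against 401 UMIs and a ratio of 0.51 (0.33 to 0.70). Outside the hippocampus Dnajb1 was the higher one in both sections, by 0.36 and 1.79 log2 units. In all 5 pairs the regional ordering of hippocampus and outside was the same in both sections. The counting intervals of hippocampus and outside overlapped, however, for Dnaja1 over Dnaja2 in both sections and for Hsph1 over Hspa4 in the section labelled Trained.

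**Figure D4:**
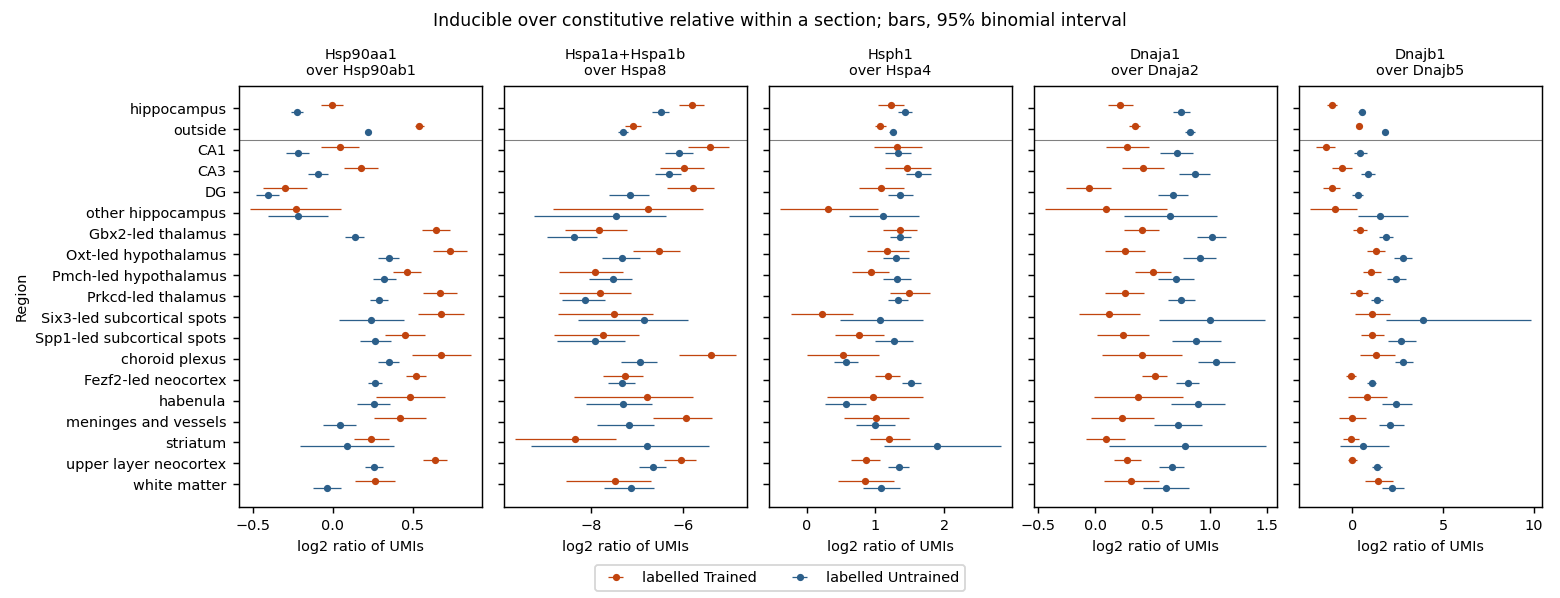
Each panel gives, for a pair of relatives, the log2 ratio of the UMIs of the inducible over the constitutive gene by region, with 95% binomial intervals, in the section labelled Trained and the section labelled Untrained. Hsp90aa1 over Hsp90ab1 is lower inside the hippocampus than outside in both sections, and Dnajb1 over Dnajb5 is lower in the section labelled Trained in every region drawn.

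Between the sections, 46 members had at least 400 UMIs in the hippocampal spots of both sections combined. With CPM of the section labelled Trained divided by CPM of that labelled Untrained, their median log2 ratio was 0.037, against 0.073 for 5800 genes. The median of the members was -0.041 when mitochondrially encoded genes were left out of the totals and -0.13 with each spot weighted equally. At least 1.5-fold higher in the section labelled Trained were 7 of 46 (8.47% of all genes), and 0 of 46 were that much lower (4.21% of all genes). The summed level of all 75 genes was 7969 CPM in the hippocampus of the section labelled Trained and 8046 CPM in that of the section labelled Untrained. Of the 46 members 18 had an interval above 0 (36.5% of all genes) and 8 an interval below 0 (22.6% of all genes).

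The member with the highest ratio was Dnajb5, with 343 UMIs (78.2 CPM) in the hippocampus of the section labelled Trained and 401 UMIs (35.4 CPM) in that of the section labelled Untrained. Its log2 ratio was 1.14 (0.93 to 1.36), with 1.29 in CA1, 1.07 in CA3 and 1.11 in DG, and 1.04 on the left and 1.17 on the right side. Outside the hippocampus the log2 ratio of Dnajb5 was 1.14 as well (1.01 to 1.28). Dnajb4, a close relative listed as heat inducible, stood at 59.7 and 33.9 CPM, which gives 0.82 (0.59 to 1.05) in the hippocampus and 1.06 (0.97 to 1.15) outside it.

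The other members past the fold in the hippocampus were likewise higher outside it. Dnajb9, which takes misfolded proteins of the endoplasmic reticulum to degradation, stood at 60.2 and 33.8 CPM in the hippocampus, a log2 ratio of 0.83, with 0.68 outside. Dnajc19, a part of the motor that pulls proteins into mitochondria, stood at 212 and 124 CPM, with log2 ratios of 0.78 and 0.73. The levels of Hspe1 were 521 and 305 CPM, with log2 ratios of 0.77 and 0.67. All of these genes were thus higher in the section labelled Trained in both places. Dnaja2 stood at 307 and 190 CPM, with log2 ratios of 0.69 and 0.66, and Dnajc14 at 49.7 and 32.9 CPM, with 0.60 and 0.58. Dnajc19 overlaps Fxr1 on the other strand, Dnajc14 overlaps Sarnp on the same strand and Tmem198b and Ormdl2 on the other, Hspe1 overlaps Hspd1 on the other, and named pseudogenes exist for Dnajc19 (1), Hspe1 (6) and Hspd1 (5), so that reads could be shared.

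The GC content of the transcripts moved with these ratios. The 7 members past the fold had a median GC content of 42.6%, the 46 members 47.2% and all genes compared 49.9%. After the trend of the ratio with GC over all genes had been removed, 3 members were past the fold, Dnajb5 at 1.29, Hspe1 at 0.64 and Dnajc16, which had not been past it before, at 0.67, while Dnajb9 was at 0.56, Dnajb4 at 0.58, Dnajc14 at 0.54, Dnajc19 at 0.50 and Dnaja2 at 0.45. The part of GC content in the ratios was not tested further.

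The 5 lowest ratios included those of the abundant Hspa8 and Hsp90ab1. Dnajb1 had 36.5 CPM in the hippocampus of the section labelled Trained and 50.5 CPM in that of the section labelled Untrained, a log2 ratio of -0.46 (-0.73 to -0.21), and Hsph1 had 187 and 251 CPM, a log2 ratio of -0.42 (-0.54 to -0.31). Hsp90ab1 had 831 and 1049 CPM, a log2 ratio of -0.34 (-0.39 to -0.28). Hspa8 had 1551 and 1930 CPM, a log2 ratio of -0.32 (-0.35 to -0.28), and Dnajc4, a little known mitochondrial DnaJ protein, had 22.6 and 28.3 CPM, a log2 ratio of -0.32 (-0.67 to 0.00). Outside the hippocampus the log2 ratios of these 5 genes were -0.28, -0.46, -0.37, -0.29 and -0.21.

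Heat inducible members did not move as 1 group. In the hippocampus 7 of 10 were compared, 4 with an interval above 0 (Dnajb4, Hspe1, Hspd1 and Dnaja1; 36.5% of all genes) and 3 with an interval below 0 (Dnajb1, Hsph1 and Hsp90aa1 at -0.12; 22.6% of all genes). Hspe1 and Hsph1, whose promoters both hold 3 adjoining units, lay on opposite sides of 0. The median of the list was 0.16, and it was -0.10 when each spot was weighted equally. With the GC trend removed Dnaja1 was at -0.12, 3 of the 7 genes were above 0 and 4 below, and the median was -0.12. Of the 16 constitutive cytosolic members 14 were compared, with a median of -0.05, which was below 0 under each scaling tried, and with Dnaja2 as the 1 gene past the fold. Dnajb5, the constitutive relative of Dnajb1 in the pairs, is in no role list and, at 1.14, entered neither this count nor this median. The difference of the medians of the lists was 0.21 in the hippocampus and 0.033 outside, and in the hippocampus it was -0.064 without Hspd1 and Hspe1, which act in mitochondria, and -0.0405 with the GC trend removed.

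The UMIs of a list were also summed. The 10 heat inducible genes came to 2175 CPM in the hippocampus of the section labelled Trained and 2017 CPM in that of the section labelled Untrained, a log2 ratio of 0.11, although Hsp90aa1, the most abundant of them, was lower in the section labelled Trained and Hspe1 higher. The 16 constitutive cytosolic genes came to 3842 and 4327 CPM, a log2 ratio of -0.17, of which Hspa8 and Hsp90ab1 held the largest part. Outside the hippocampus these ratios were 0.10 and -0.17.

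The list of mitochondrial members counts Hspd1 and Hspe1 again. Of its 10 genes 9 were compared in the hippocampus, with a median of 0.23, which was 0.16 without mitochondrially encoded genes in the totals and 0.088 with each spot weighted equally. Their summed level was 1396 CPM in the section labelled Trained and 1033 CPM in the section labelled Untrained, a log2 ratio of 0.43. Hspe1 and Dnajc19 were past the fold (8.47% of all genes). Dnaja3, a DnaJ partner of Hspa9, had a log2 ratio of 0.53 in the hippocampus and 0.42 outside it, and Hspa9 had 0.23 and 0.21. Outside the hippocampus the median of the list was 0.21, and it was -0.0011 with each spot weighted equally. Of the 14 members of the endoplasmic reticulum 11 were compared, with a median of 0.09 that was -0.13 with each spot weighted equally and -0.12 with the GC trend removed. Dnajb9 and Dnajc14 were past the fold (8.47% of all genes), though at 0.56 and 0.54 with the GC trend removed, whereas Hspa5, the gene most used as a sign of the unfolded protein response, was at -0.26 (-0.40 to -0.12).

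Genes of the pathway outside the rule are given by the same measures. Of 23 heat shock factors and cochaperones 15 were compared in the hippocampus, with a median of 0.06, 2 at least 1.5-fold higher (Bag1, a nucleotide exchange factor, and Bag4; 8.47% of all genes) and 1 lower (Stub1, a ubiquitin ligase that binds HSP70; 4.21% of all genes). Of the 8 subunits of the cytosolic chaperonin TRiC all were compared, with a median of -0.16, 6 of 8 below 0 (2449 of 5800 for all genes) and 1 at least 1.5-fold lower (Cct7). None of the 9 compared genes of folding and stress in the endoplasmic reticulum and none of the 6 other mitochondrial genes, whose median was -0.011, passed the fold. Hsf1, the factor that switches on the inducible genes, had 63 and 220 UMIs in the hippocampus, too few for the comparison.

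**Figure D5:**
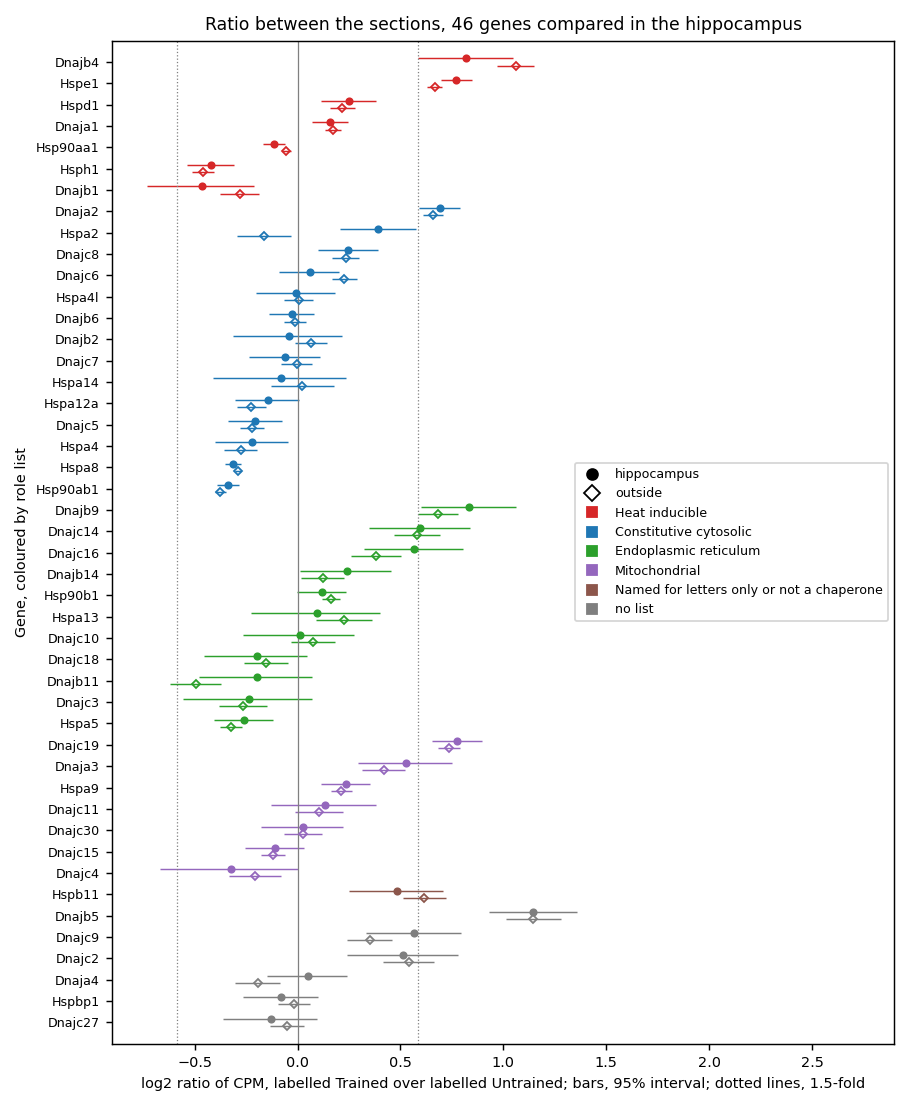
Log2 ratio of CPM, the section labelled Trained over that labelled Untrained, with 95% counting intervals, for the 46 genes compared in the hippocampus, ordered by role list. Filled circles give the hippocampus and open diamonds the spots outside it, and dotted lines mark 1.5-fold. For most genes the symbols overlap, and Hspa2 is the gene whose symbols lie on different sides of 0 with neither interval reaching it.

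Outside the hippocampus 58 members were compared. Their median log2 ratio was 0.030 (-0.031 without mitochondrially encoded genes in the totals), against 0.075 for 11099 genes, and 9 were at least 1.5-fold higher in the section labelled Trained (8.03% of all genes) and 3 lower (4.87%). Of the 7 genes past the fold in the hippocampus all but Dnajc14, at 0.58, were past it here too. The others were Dnajc21, which acts in ribosome assembly, at 0.80, Dnajc24 at 0.74 and the cilium gene Hspb11 at 0.62. The 3 lower ones were Hspb8 with 9.71 CPM in the section labelled Trained and 16.5 CPM in the section labelled Untrained (-0.76), Hspb1 with 13.9 and 23.4 CPM (-0.75), and perlecan, Hspg2, with 4.18 and 7.15 CPM (-0.77).

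Markers of the choroid plexus and of meninges and vessels were also lower in the section labelled Trained. The 7 markers of the choroid plexus, none of them at 0, summed to 6192 CPM outside the hippocampus of the section labelled Trained and 21657 CPM outside that of the section labelled Untrained, and to 974 and 4325 CPM inside it. The 8 markers of meninges and vessels summed to 114 and 240 CPM outside the hippocampus, and choroid plexus spots numbered 71 and 165. Without choroid plexus spots, a comparison added after the data had been seen, Hspb8 was at -0.31 and Hspb1 at -0.61, and 1 member in place of 3 was past the fold on the lower side. Within choroid plexus spots both genes were lower in the section labelled Trained too. Hspb8 had 22 and Hspb1 20 of 694971 UMIs there, against 302 and 235 of 4847220 in the section labelled Untrained. The part of tissue make-up in these ratios was not tested.

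The ratio in the hippocampus minus that outside it sets the hippocampus against the rest of the same sections. Over the 46 members the median of this difference was 0.010 with an SD of 0.13 log2 units, against -0.010 and 0.18 for 5794 genes. None of the 46 members passed 1.5-fold in either direction, as 1.19% of all genes did. The SD of the left over right log2 ratio within the hippocampus was 0.20 in the section labelled Trained and 0.11 in the section labelled Untrained over the members. Over 5800 genes it was 0.25 and 0.17. This spread within 1 animal includes counting error, and the left side of the section labelled Trained was the shallowest.

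Of the 46 members Hspa2 had the largest difference. It had 83.2 CPM in the hippocampus of the section labelled Trained and 63.4 CPM in that of the section labelled Untrained, a log2 ratio of 0.39 (0.21 to 0.58), whereas outside it had 27.6 and 30.8 CPM, a log2 ratio of -0.16 (-0.29 to -0.03). The difference between these ratios was 0.55. Its ratio was 0.35 in CA1, 0.46 in CA3 and 0.52 in DG, and 0.25 on the left and 0.45 on the right side. Hspa2 was also high in the choroid plexus, and without those spots its ratio outside the hippocampus was -0.01 and the difference 0.41. After Hspa2 came Dnajb11 with 0.29, Dnaja4 with 0.24, Dnajb4 with -0.24 and Dnajc9, which handles histones, with 0.21.

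Hspa1a and Hspa1b were below the minimum for this comparison. Hspa1b had 65 UMIs (14.8 CPM) in the hippocampus of the section labelled Trained and 112 UMIs (9.88 CPM) in that of the section labelled Untrained, a log2 ratio of 0.59 (0.12 to 1.04). Outside the hippocampus it had 115 and 255 UMIs, a log2 ratio of -0.22 (-0.555 to 0.099), so that the difference was 0.81, more than that of Hspa2 but from few UMIs. Its near copy Hspa1a had 56 UMIs (12.8 CPM) and 132 UMIs (11.6 CPM), a log2 ratio of 0.14 (-0.34 to 0.59), with 0.034 (-0.23 to 0.29) outside.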

How the data were processed

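The counts used here were deposited by the authors as filtered matrices of UMIs per gene and spot, made from trimmed reads with Space Ranger 2.0.0 on mm10. A score, Moran's I, was read from tables deposited by the authors. Their p-value and normalized count columns and the image scale factors were not used here. Both sections were clustered together with scanpy 1.11.5 (Leiden, resolution 1.5, seed 7) on 945 variable genes without any chaperone or pathway gene, and 308 spots under 500 UMIs were left out. Clusters were named from marker lists, and the hippocampus was outlined from its clusters in patches of at least 30 spots. The UMIs of all spots in a region were summed and divided by their total, as CPM. Ratios between sections used a pseudocount of 0.5 UMI and at least 400 UMIs over both sections. Intervals were exact Poisson or conditional binomial intervals and cover counting error only, since spots are no replicates. With 1 section in each group no test was run. Groups follow the labels of the deposit, which are at odds with the study's account of its sections. The calculation was tested on simulated counts.

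The members, role lists and named genes followed rules written with earlier results of these data known. Members are named when they were among the 10 most abundant, belonged to 1 of 5 pairs of relatives, were among the 5 highest or 5 lowest hippocampal ratios, the 5 largest differences between hippocampus and outside, or the 10 widest regional ranges. Others that the text names were chosen after their values had been seen. The software was Python 3.11.15 with pandas 2.3.3, scipy 1.17.1, numpy 2.4.6 and matplotlib 3.10.9.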

Additional observations from a re-analysis of the deposited data

Results flagged for a closer look

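Hspa2 had a higher level in the hippocampus of the section labelled Trained and a lower level outside it, with counting intervals on either side of 0 and a difference of 0.55 log2 units. Without the choroid plexus spots, which numbered 71 and 165 and were high in Hspa2, its log2 ratio outside the hippocampus was -0.01 and the difference 0.41. The difference was not tested, because each group held 1 section. Its direction follows the labels of the deposit, which the study's account of its sections reverses.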

How the results depend on the processing

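No paired analysis was possible because each group held 1 section. The medians of the members moved by less than the typical half-width of the counting interval of a single member (0.19 log2 units in the hippocampus and 0.10 outside) under every alternative run. This is a wide allowance for a median of many genes. The hippocampal median of 0.037 changed sign under some alternatives and was -0.13 with each spot weighted equally. The count of 7 members at least 1.5-fold higher in the hippocampus was 3 after removal of the GC trend, of which Dnajb5 and Hspe1 were among the 7 and Dnajc16 was not. The count of 0 lower members there was 1 with each spot weighted equally or a minimum of 100 UMIs and 2 on the left side alone. Outside the hippocampus the 3 lower members became 5 on the left side alone, and 1 on the right side alone, with regions weighted equally or without choroid plexus spots (the last chosen after seeing the data). The count of 0 members past the fold for hippocampus minus outside was 1 with each spot weighted equally, on the left side alone, with layers weighted equally or with a minimum of 100 UMIs. The inducible minus constitutive difference of 0.21 was -0.064 in the hippocampus without Hspd1 and Hspe1, and -0.0405 there with the GC trend removed, also chosen after seeing the data, and that of 0.033 outside was 0.14 on the right side alone, -0.055 on the left side alone and -0.048 with each spot weighted equally. The 34 pairs of a member and a region where it was higher (3.57% of such pairs, against 5.2% over all genes) became 56 with a minimum of 50 UMIs (4.99%, against 6.41%) and 55 with spots thinned to 1000 UMIs (5.78%, against 9.16%). Of the ratios of single named members 400 stayed within their counting interval and 110 did not, and no ratio past 1.5-fold changed sign. Hspa1a and Hspa1b were under the minimum of 400 UMIs in the hippocampus and entered only with the minimum of 100 UMIs. The causes were not tested.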
